A study of Mus musculus with 16 samples.

Results

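Cholesterol is built in the endoplasmic reticulum from acetyl-CoA through mevalonate, squalene and lanosterol, and Hmgcs1, Sqle, Ebp, Sc5d and Dhcr7 encode enzymes of this route. Srebf2 encodes SREBP-2, the transcription factor that turns the route on when membrane sterol is low, and Insig1 encodes the protein that holds the factor back when sterol is plentiful and is itself one of its targets. Tamoxifen binds, besides the estrogen receptor, the antiestrogen binding site formed by the Ebp and Dhcr7 proteins, and in cultured cells this binding is known to block late sterol conversion.

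The 7 genes were taken from the 41388 rows of the count table by their symbol, in RNA sequencing of mouse quadriceps in 4 groups of 4 libraries. The strain is labelled C57BL/6 (C57BL6J in the study's methods), and the labels put sampling at postnatal day 36, while a supplement of the study puts it a day earlier. Wild-type mice without the drug form the WT group, and wild-type mice given tamoxifen-citrate form WT + TAM. Mice lacking exon 4 of Mtm1 in every tissue, a model of X-linked myotubular myopathy, form Mtm1 KO without the drug and Mtm1 KO + TAM with it. The drug was mixed at 40 mg per kg per day into a chow sweetened with sucrose and given from day 21, while untreated mice of the study were given standard chow as placebo. Whether that chow was also sweetened is not given in the sources used here, so a part of the diet in the tamoxifen comparisons cannot be told apart from the drug. In the study's methods the mice were littermates, and the question asked of the RNA was whether the drug acts on transcription in this muscle.

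Total counts ran from 25116179 to 29847222 per library. Mtm1 itself, the check of the genotype labels, had 341 to 369 counts in WT replicates 2 to 4, 282 to 459 in WT + TAM, 63 to 85 in Mtm1 KO and 53 to 97 in Mtm1 KO + TAM. The library labelled WT replicate 1 had 74 counts, inside the Mtm1 KO range. The study's own comparison used 14 libraries, without the library labelled WT replicate 1 and without Mtm1 KO replicate 12. Those 2 libraries also stood farther from their groups than other libraries did, with counts that differed by 39.1 to 40.9 and 19.4 to 38.9 times sampling noise, against 7.48 to 14.8 for 17 other pairs within a group. The 14 libraries are the main set here, and values with all 16 are given beside a number of the results. WT + TAM replicates 7 and 8 were the closest pair, at 3.23 times sampling noise. They are labelled as separate samples, and the study's methods state that n counts individual mice in its mouse experiments. They were counted as 2, though whether they came from separate mice was not tested here. Summing them took the genes called in WT + TAM against WT from 19 to 4. Skeletal muscle fiber markers were abundant in all libraries, with none of 10 markers at 0.

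All 7 genes are protein coding, and their positions are those of GENCODE vM21 on GRCm38. Hmgcs1 (ENSMUSG00000093930) lies at chr13:119690379-119708260 on the plus strand, Sqle (ENSMUSG00000022351) at chr15:59315077-59331192 on the plus strand, and Ebp (ENSMUSG00000031168) at chrX:8185329-8193512 on the minus strand. Sc5d (ENSMUSG00000032018) lies at chr9:42251595-42264256 on the minus strand, Dhcr7 (ENSMUSG00000058454) at chr7:143823145-143848410 on the plus strand, Srebf2 (ENSMUSG00000022463) at chr15:82147181-82205379 on the plus strand, and Insig1 (ENSMUSG00000045294) at chr5:28071363-28078662 on the plus strand. Exons of Hmgcs1 overlap the opposite-strand gene Gm48342, and 11.6% of its 50-base exon stretches also occur in another gene, so its counts carry that uncertainty. The share was at most 2.168% for the other 6 genes.

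Promoter sequence was read for 6 of the 7 genes from RefSeq (GRCm38.p6), as windows of 250 bases before to 50 bases after a start site. The motifs searched, on both strands, were the sterol regulatory element TCACNCCAC, which SREBP factors bind, the E-box CACGTG, and the CCAAT box CCAAT, bound by the factor NF-Y that works beside SREBP-2. They occurred in 1.24%, 7.15% and 37.4% of all 32851 windows. Among the 6 genes the sterol element was found in 1, Hmgcs1, the E-box in 3, Dhcr7, Insig1 and Sc5d, and the CCAAT box in 6. The 6 genes had 8 windows, and a gene was counted if any of its windows matched. These counts are thus not on the same measure as the shares of windows. The E-box and the CCAAT boxes of Dhcr7 lie in different windows. The stretches below run 5′ to 3′ on the gene's strand, with motif matches in capitals, and were chosen, with the values known, for the first enzyme of the group, for the drug's target Ebp, and for Insig1 and Sc5d, whose levels varied together across mice. They lie at chr13:119690102-119690322, chrX:8193551-8193694, chr5:28071184-28071328 and chr9:42264308-42264410. The sterol element of Hmgcs1 (TCACCCCAC) begins 137 bases before the start, and the E-boxes of Insig1 and Sc5d begin 101 and 98 bases before it. The stretch of Ebp holds CCAAT boxes (as ATTGG on this strand) and neither of the other motifs.
Hmgcs1: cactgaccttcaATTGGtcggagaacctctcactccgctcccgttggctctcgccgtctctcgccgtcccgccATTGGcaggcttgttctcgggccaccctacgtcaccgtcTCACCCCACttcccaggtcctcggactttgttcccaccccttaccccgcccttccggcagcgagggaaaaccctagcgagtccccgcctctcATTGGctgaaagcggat
Ebp: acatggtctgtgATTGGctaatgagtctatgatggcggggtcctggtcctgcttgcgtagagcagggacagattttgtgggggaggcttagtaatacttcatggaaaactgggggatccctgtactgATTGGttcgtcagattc
Insig1: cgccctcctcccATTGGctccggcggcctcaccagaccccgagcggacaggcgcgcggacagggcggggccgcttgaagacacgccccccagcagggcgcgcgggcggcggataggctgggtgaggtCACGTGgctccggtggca
Sc5d: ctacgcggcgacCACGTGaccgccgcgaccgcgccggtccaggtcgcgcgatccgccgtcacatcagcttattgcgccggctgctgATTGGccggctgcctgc

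Across the 14 libraries the genes differed widely in level. RPKM divides by gene length so that genes can be compared, and the order of genes rests on the lengths the authors used, which were not checked. In RPKM Hmgcs1, which makes HMG-CoA at the entry of the route, was the highest at 14.5 ± 2.499 (mean ± SD, n = 14). Insig1 followed at 10.8 ± 4.87, Sc5d at 7.39 ± 1.51, Srebf2 at 6.29 ± 1.39, Ebp at 5.00 ± 1.56 and Dhcr7 at 2.40 ± 0.562. Sqle, the squalene epoxidase that opens the sterol branch and is a rate-limiting step, was the lowest at 0.575 ± 0.164. The order was firm at the bottom, where Ebp exceeded Dhcr7 and Dhcr7 exceeded Sqle in 14 of 14 libraries. The upper neighbours kept their order in 11 libraries (Hmgcs1 over Insig1), 12 (Insig1 over Sc5d), 11 (Sc5d over Srebf2) and 11 (Srebf2 over Ebp), so these levels overlapped within the spread.

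Placed in pathway order, the 21 genes of cholesterol synthesis ran from 25.2 ± 2.70 RPKM for Fdps, which makes farnesyl diphosphate, to 0.294 ± 0.102 for Lss, which closes the ring to lanosterol. Fdft1, the squalene synthase, was second at 18.2 ± 4.32. The neighbours that follow it in the route, Sqle and Lss, had the lowest 2 RPKM means of the 21. The place of Lss depends on the length used. In WT replicate 2 Lss had 125 counts and 0.409 RPKM, and Idi1 91 counts and 0.916 RPKM. In WT replicate 3 they had 46 and 73 counts. In the last steps, the means of Ebp and Sc5d were above that of Dhcr7.

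**Figure D1:**
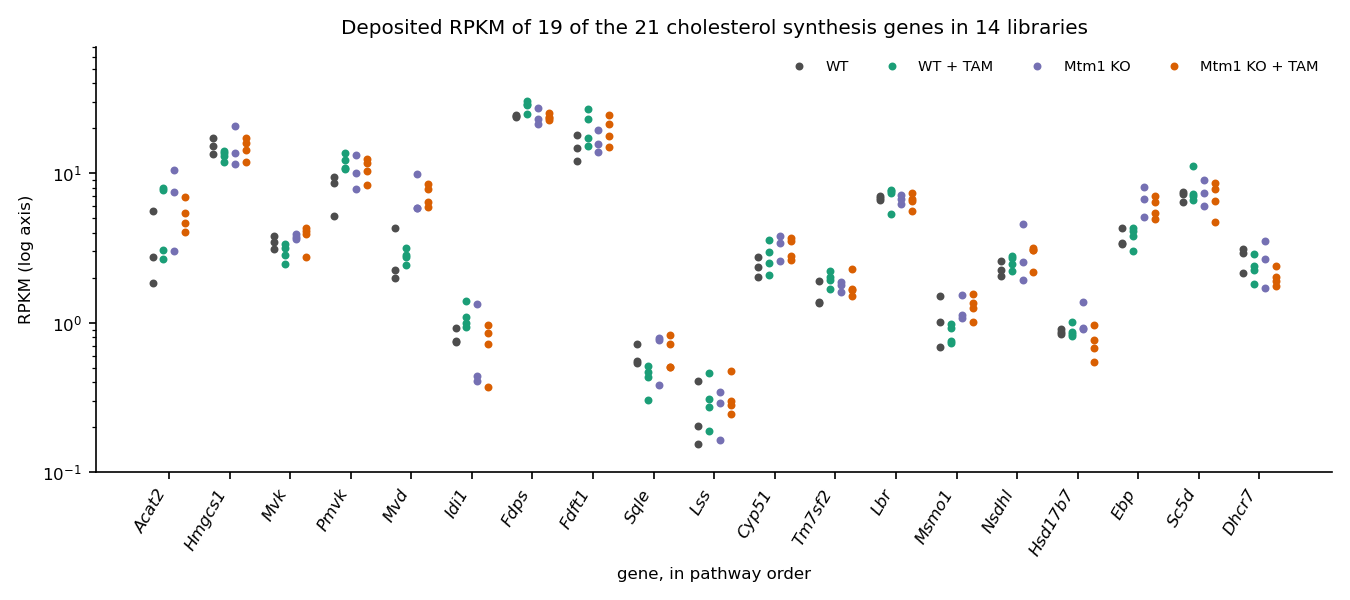
RPKM on a log axis for 19 of the 21 genes of cholesterol synthesis in pathway order, 1 point per library of the 14, colored by group. Fdps, Fdft1 and Hmgcs1 have the highest means, at 25.2, 18.2 and 14.5 RPKM, and Sqle and Lss the lowest, at 0.575 and 0.294 RPKM.

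The first question was whether tamoxifen moved these genes. It was tested in WT, in Mtm1 KO, averaged over both genotypes, and as the difference between the genotypes, with edgeR's quasi-likelihood test over all genes. A gene was called where its p, adjusted by Benjamini-Hochberg, did not exceed 0.01. None of the 7 genes was called in any of these comparisons, none reached an unadjusted p of 0.05 in them with the 14 libraries, and DESeq2 called none. With all 16 libraries the averaged effect of Dhcr7 was -0.33 on the log2 scale (edgeR, unadjusted p = 0.0399, adjusted p = 0.285). The genome-wide background was low. WT + TAM against WT called 19 of 14544 genes (0.131%; 0.55% when the limit was 0.05), and Mtm1 KO + TAM against Mtm1 KO called 0 of 15062 (0% at either threshold, with 1137 genes at an unadjusted p under 0.05, 72 genes called by DESeq2 and 72 by edgeR's exact test). The averaged effect called 92 of 15556 (0.591%; 1.84% at 0.05), and the difference between genotypes 0 of 15556 (0% at either threshold, with 664 genes at an unadjusted p under 0.05 and 11 called by DESeq2). The averaged and the interaction fits used all 14 libraries, and each treated group was set against its own untreated group.

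Levels by library below are CPM, read counts scaled to a common library size with TMM factors, in replicate order. Hmgcs1 stood at 57.9, 51.6 and 51.3 CPM in WT and at 43.0, 49.7, 45.5 and 47.8 in WT + TAM. Its 4 treated WT libraries were all below the 3 untreated ones, and the fitted log2 fold change was -0.21 (95% interval -0.45 to 0.02; edgeR quasi-likelihood test, unadjusted p = 0.0690, adjusted p = 0.506). The Mtm1 KO libraries stood at 58.3, 37.7 and 33.5 CPM and those of Mtm1 KO + TAM at 37.1, 41.3, 43.8 and 52.3. The treated values lay within the untreated range, with a log2 fold change of 0.00 (-0.41 to 0.41). The library labelled WT replicate 1 was at 25.4 CPM and Mtm1 KO replicate 12 at 30.9, and with all 16 libraries the log2 fold change in WT was -0.01, so the separation in WT rests on leaving the first of them out.

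Sqle stood at 3.18, 3.52 and 4.22 CPM in WT and at 1.90, 3.08, 2.82 and 2.63 in WT + TAM, on 44 to 111 counts in these 7 libraries. The treated WT libraries were again all below the untreated ones, though by little between the nearest of them, and the log2 fold change was -0.49 (-1.03 to 0.05; edgeR, unadjusted p = 0.0697, adjusted p = 0.507). In the knockout the values were 3.82, 3.62 and 1.92 CPM untreated and 2.74, 2.47, 3.96 and 3.78 treated, with overlapping groups and a log2 fold change of 0.03 (-0.60 to 0.67). The 2 effects differed by 0.54 (-0.27 to 1.34) on the log2 scale, an interval that contains 0. The library labelled WT replicate 1, at 2.74 CPM, fell among the treated WT libraries.

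Ebp, the sterol isomerase that forms the antiestrogen binding site with Dhcr7, stood at 10.3, 9.35 and 8.15 CPM in WT and at 9.78, 7.53, 10.7 and 10.3 in WT + TAM. Among Mtm1 KO libraries it was at 13.6, 15.99 and 10.6 CPM and in Mtm1 KO + TAM at 14.3, 10.1, 13.9 and 11.8. Within each genotype the treated and untreated libraries overlapped throughout. The log2 fold change with tamoxifen was 0.04 (-0.35 to 0.42) in WT, -0.11 (-0.51 to 0.29) in Mtm1 KO and -0.03 (-0.30 to 0.24) averaged, which puts the averaged change between 0.815-fold and 1.18-fold. With all 16 libraries, 2 of them with high Ebp among the untreated ones, the values were -0.23 in WT, -0.25 in Mtm1 KO and -0.24 ± 0.16 (SE) averaged.

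Sc5d, the desaturase that acts after Ebp, stood at 17.6, 17.7 and 18.4 CPM in WT and at 18.3, 28.2, 18.3 and 16.7 in WT + TAM. Treated replicate 6 was far above the others, which lay close to the WT values, and the log2 fold change was 0.18 (-0.22 to 0.57), which was 0.37 with all 16 libraries and -0.01 without replicate 6. In Mtm1 KO it stood at 18.3, 14.5 and 12.7 CPM and in Mtm1 KO + TAM at 10.8, 13.4, 15.7 and 18.9, with overlapping groups and a log2 fold change of -0.06 (-0.49 to 0.36), or 0.11 with all 16 libraries. Dhcr7, the reductase of the last step and the partner of Ebp at the drug's binding site, stood at 11.49, 9.69 and 12.4 CPM in WT and at 10.2, 11.9, 9.31 and 7.43 in WT + TAM. In Mtm1 KO it stood at 11.6, 8.58 and 5.79 CPM and in Mtm1 KO + TAM at 7.01, 5.87, 6.51 and 8.59. The groups overlapped in both genotypes, and Dhcr7 had the lowest averaged log2 fold change of the 7 at -0.27 (-0.59 to 0.06; edgeR, adjusted p = 0.460). It was -0.14 without Mtm1 KO replicate 9. The effect in Mtm1 KO alone was -0.32 (-0.83 to 0.18), and it was -0.07 without that library and -0.54 without Mtm1 KO replicate 11.

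Srebf2 stood at 28.1, 31.8 and 31.2 CPM in WT and at 19.5, 24.7, 35.7 and 33.9 in WT + TAM, so the treated libraries fell on both sides of the untreated ones. In Mtm1 KO it stood at 34.4, 27.4 and 37.4 CPM and in Mtm1 KO + TAM at 25.8, 36.2, 30.7 and 32.7, and the averaged log2 fold change was -0.09 (-0.37 to 0.19). Insig1 stood at 32.9, 24.1 and 23.3 CPM in WT and at 37.0, 62.6, 24.2 and 28.4 in WT + TAM. Treated replicates 5 and 6 were above all WT libraries and the other two lay within the WT range, with a log2 fold change of 0.49 (-0.17 to 1.15; edgeR, adjusted p = 0.5997), or 0.72 with all 16 libraries and 0.16 without replicate 6. In Mtm1 KO it stood at 41.1, 18.7 and 14.6 CPM and in Mtm1 KO + TAM at 16.3, 19.0, 17.1 and 46.4, where 1 library of each group stood far above the others, and the log2 fold change was -0.02 (-0.92 to 0.88). Without Mtm1 KO + TAM replicate 16 it was -0.51, without Mtm1 KO replicate 9 it was 0.54, and with all 16 libraries it was 0.23.

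**Figure D2:**
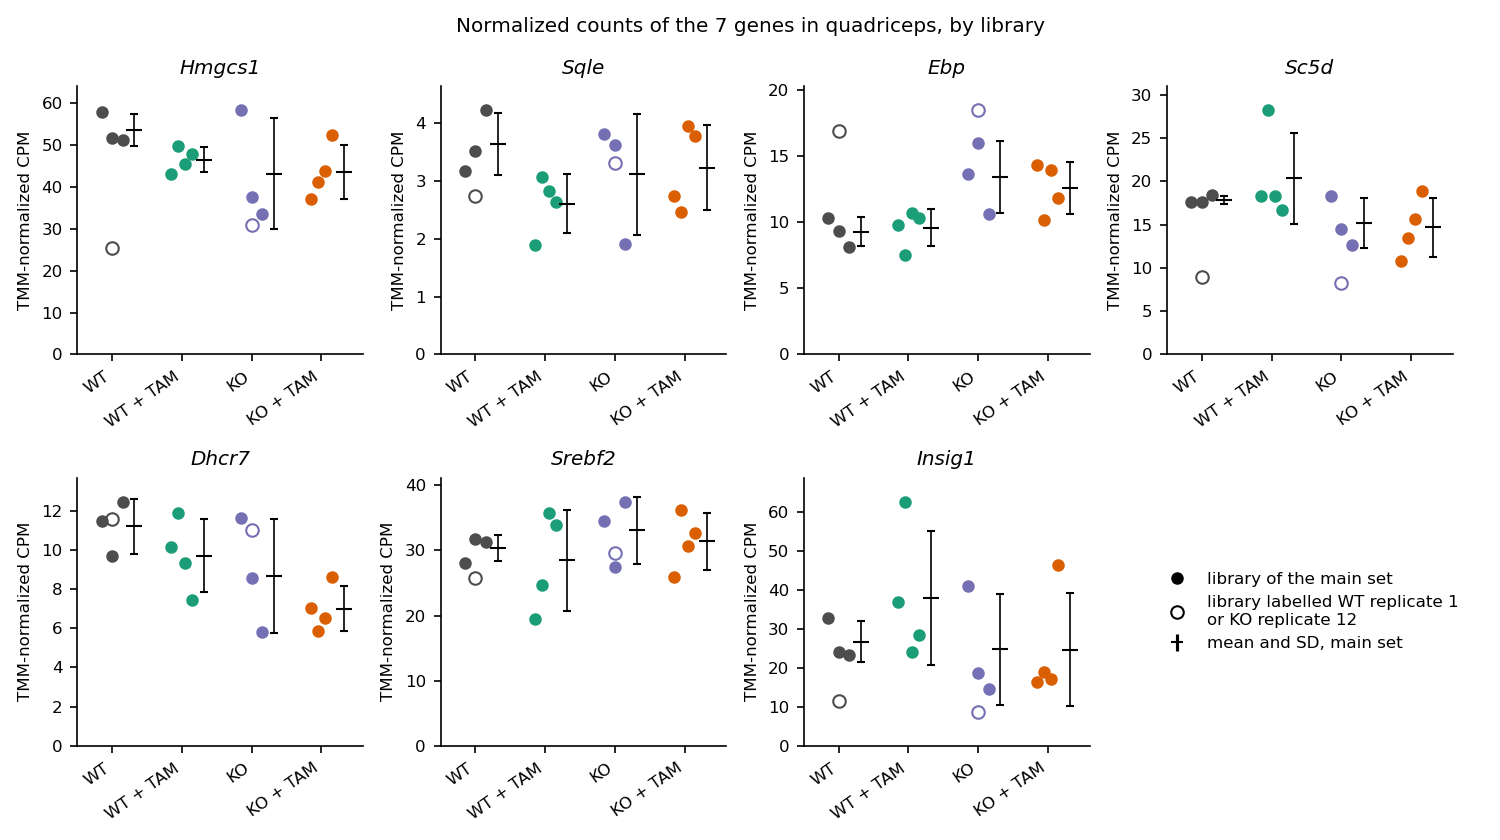
TMM-normalized CPM of the 7 genes in each library by group. Filled points are the 14 libraries of the main set, open points the libraries labelled WT replicate 1 and Mtm1 KO replicate 12, and bars the mean and SD of the filled points. Among the filled points, treated and untreated libraries overlap within each genotype for all genes but Hmgcs1 and Sqle in WT. Insig1 has 1 or 2 high libraries in each treated group and in Mtm1 KO.

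The intervals give the precision for each gene. Over the 7 genes the averaged tamoxifen effect lay between -0.62 and 0.86 on the log2 scale at the outermost interval bounds, and it was narrowest for Hmgcs1 (0.791-fold to 1.102-fold) and widest for Insig1 (0.776-fold to 1.81-fold). The median log2 fold change of the 7 was -0.10 in WT, -0.06 in Mtm1 KO and -0.09 averaged, beside 0.00, -0.01 and 0.00 over all genes tested. With all 16 libraries the averaged log2 fold change of Hmgcs1 turned positive at 0.05 (0.03 without Mtm1 KO replicate 9), and those of Insig1 and Sc5d were 0.48 and 0.24, beside 0.25 and 0.06 with 14.

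**Figure D3:**
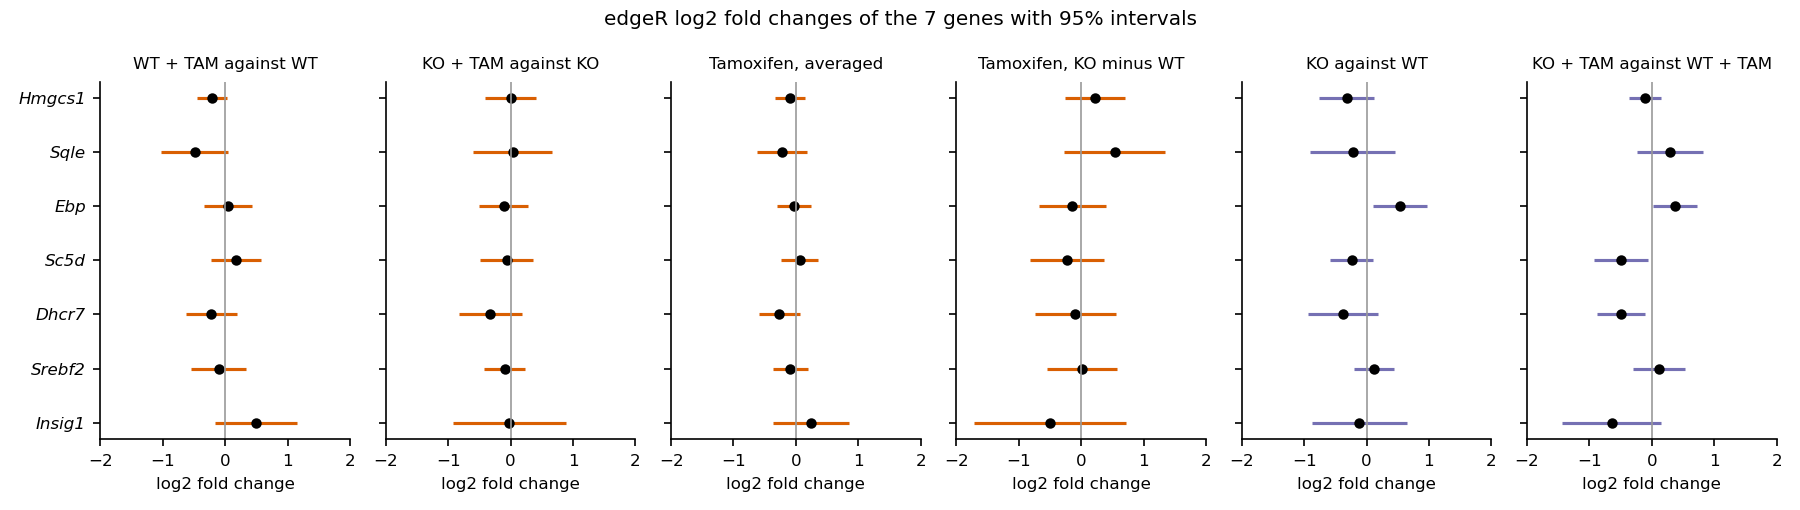
Log2 fold change (points) with 95% interval (bars) of the 7 genes in the 6 comparisons, tamoxifen comparisons in orange and genotype comparisons in purple. All intervals of the 4 tamoxifen panels contain 0, and those of Ebp in both genotype panels and of Sc5d and Dhcr7 in the last one do not.

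The rest of the route was also without a call for tamoxifen. None of the 21 cholesterol synthesis genes was called for tamoxifen in WT, in Mtm1 KO, averaged or in the difference between genotypes, by edgeR at 0.01 or 0.05 or by DESeq2, and 3, 0, 2 and 0 of them reached an unadjusted p under 0.05, beside 1549, 1137, 2200 and 664 of all genes tested. Of all genes, edgeR called 0.131%, 0%, 0.591% and 0% at 0.01, and 0.55%, 0%, 1.84% and 0% at 0.05. With shares this low, few or no calls among 21 genes say little about the route. In WT, 14 of 21 had a log2 fold change above 0, with a median of 0.14 beside 0.00 over all genes, of which 49.5% were above 0. In Mtm1 KO, 11 of 21 were above 0, with a median of 0.01. The largest values in WT were those of Acat2, an acetoacetyl-CoA thiolase, at 0.68 ± 0.46 (SE), and Pmvk, the phosphomevalonate kinase, at 0.63 ± 0.19, with adjusted p of 0.654 and 0.254 in edgeR. In Mtm1 KO they were those of Hsd17b7 (-0.50 ± 0.23), Acat2 (-0.36 ± 0.33) and Lss (0.34 ± 0.32). Averaged over the genotypes they were Fdft1 (0.40 ± 0.15, adjusted p = 0.221), Pmvk (0.37 ± 0.14, adjusted p = 0.228) and Lss (0.32 ± 0.26, adjusted p = 0.624). The effect in Mtm1 KO minus that in WT was farthest from 0 for Acat2 (-1.02 ± 0.63), and for Sqle it was 0.54 ± 0.38.

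Genes that take up and move cholesterol also showed no call for tamoxifen. Of 10 uptake and transport genes 9 passed the filter on low counts, and 0 were called for tamoxifen by edgeR in either genotype or averaged, where 0.131%, 0% and 0.591% of all genes were. Of the LXR and efflux list, which holds the sterol-sensing LXR receptors, sterol exporters and enzymes that modify sterols or phospholipids, 8 of 9 passed in WT and 9 in Mtm1 KO, with 0 called in either or averaged. At an unadjusted p under 0.05 there were 1, 0 and 4 of the uptake genes in WT, in Mtm1 KO and averaged, and 3, 1 and 3 of the LXR and efflux genes, beside 1549 of 14544, 1137 of 15062 and 2200 of 15556 over all genes.

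Among the 10 genes of SREBP control, 1 passed the limit of 0.05 for tamoxifen, in WT and averaged. Of all genes, 0.55% and 1.84% passed it in these comparisons. Srebf1, which encodes SREBP-1, the factor of fatty acid synthesis, was at 70.4, 48.8 and 54.7 CPM in WT and at 117, 111, 101 and 98.8 in WT + TAM. All treated WT libraries were above all untreated ones, and the log2 fold change was 0.87 ± 0.15 (SE), a 1.83-fold level, with an adjusted p of 0.0390 in edgeR that passed 0.05 and not 0.01. The adjusted p was 0.121 with all 16 libraries, 0.0865 with replicates 7 and 8 summed, 0.0623 with library size scaling, up to 0.170 with 1 library left out, and 1.22e-05 in DESeq2. In Mtm1 KO it was at 53.3, 40.7 and 33.0 CPM and in Mtm1 KO + TAM at 52.6, 48.3, 45.7 and 62.6, with overlapping groups and a log2 fold change of 0.29 (-0.09 to 0.67). The averaged effect was 0.59 ± 0.12 (edgeR, adjusted p = 0.0167, and up to 0.0579 with 1 library left out). The difference between genotypes was -0.57 (-1.06 to -0.08) with an adjusted p of 0.999794 over all genes. Exons of Srebf1 overlap Rai1 on the opposite strand, and the strand setting of the counting is not given in the sources used here.

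The second question was how the genes stood in Mtm1 KO muscle against WT muscle. Mtm1 KO against WT shared its libraries with the untreated arms above, and Mtm1 KO + TAM against WT + TAM with the treated arms, so these values are not independent of those already given. The untreated comparison called 531 of 14740 genes (3.6%; 12.8% at 0.05) and the treated one 979 of 14563 (6.72%; 17% at 0.05). With TMM scaling, none of the 7 genes was called in either at 0.01 or at 0.05 by edgeR, nor by DESeq2 at 0.01, while 1 and 3 of them had an unadjusted p under 0.05, beside 4431 of 14740 and 4700 of 14563 genes over the whole table. Of the 7, 5 were below 0 in Mtm1 KO against WT, with a median log2 fold change of -0.22 beside 0.02 over all genes tested, and 4 of the 7 in the treated comparison, with a median of -0.11 beside -0.01.

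Ebp had the highest fold change of the 7 in Mtm1 KO against WT. Its 3 Mtm1 KO libraries, at 10.6 to 15.99 CPM, were all above the 3 WT libraries, at 8.15 to 10.3, and the log2 fold change was 0.53 (0.11 to 0.96), a 1.45-fold level (edgeR, unadjusted p = 0.0197, adjusted p = 0.0942). In the treated comparison the groups overlapped between 10.1 and 10.7 CPM and the log2 fold change was 0.37 (0.01 to 0.73; adjusted p = 0.141). The 2 libraries outside the main set had the highest Ebp of all 16, at 16.8 CPM in the one labelled WT replicate 1 and 18.4 in Mtm1 KO replicate 12, and with them the log2 fold change of Mtm1 KO against WT was 0.38 ± 0.27 (SE; adjusted p = 0.456). Ebpl, a relative of Ebp, had a log2 fold change of 0.61 (0.15 to 1.06; adjusted p = 0.0789) in the untreated and 0.31 (-0.19 to 0.80) in the treated comparison. In bulk muscle a change in the number of cells of a type and a change in RNA per cell cannot be told apart. The macrophage and leukocyte list, 9 genes of which Lyz2 was the most abundant and at most 1 was at 0 in a library, summed to 127 to 152 CPM in WT and 182 to 245 in Mtm1 KO, with no overlap, and the Pearson correlation of its deviations from the group means with those of Ebp was 0.70 over the 14 libraries (0.68 for the fibroblast list). The library labelled WT replicate 1 had high Ebp at 16.8 CPM with 114 CPM of the leukocyte list. WT + TAM replicate 6 was the lowest of the 14 in both, at 7.53 CPM of Ebp and 61.5 of that list. The correlation was not computed without it. The fibroblast list summed to 4495 to 5300 CPM in WT and 3583 to 4886 in Mtm1 KO, lower where Ebp was higher, with overlap. The part of leukocytes or fibroblasts in the Ebp difference was not tested.

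Dhcr7 and Sc5d, the neighbours of Ebp in the route, had the opposite sign. In the treated comparison Dhcr7 was at 5.87 to 8.59 CPM in Mtm1 KO + TAM and 7.43 to 11.9 in WT + TAM, overlapping in 1 treated WT library, with a log2 fold change of -0.49 (-0.88 to -0.10; edgeR, adjusted p = 0.0801). Sc5d was at 10.8 to 18.9 and 16.7 to 28.2 CPM, with a log2 fold change of -0.49 (-0.93 to -0.06; adjusted p = 0.113). In Mtm1 KO against WT the values were -0.37 (-0.93 to 0.18) for Dhcr7 and -0.24 (-0.59 to 0.11) for Sc5d. Hmgcs1 had -0.31 (-0.75 to 0.13) and -0.11 (-0.37 to 0.14) in the untreated and treated comparisons, Sqle -0.22 (-0.91 to 0.46) and 0.29 (-0.23 to 0.81), Insig1 -0.12 (-0.88 to 0.64) and -0.64 (-1.43 to 0.15), and Srebf2 0.12 (-0.20 to 0.44) and 0.12 (-0.29 to 0.54). Mtm1 KO replicate 9, the untreated knockout library highest in Hmgcs1, Insig1 and Dhcr7, decided much of this. Without it the log2 fold changes in Mtm1 KO against WT were -0.57 for Hmgcs1 (edgeR, adjusted p = 0.0340), -0.67 for Insig1 (adjusted p = 0.0695) and -0.63 for Dhcr7. Without Mtm1 KO + TAM replicate 16 that of Insig1 in the treated comparison was -1.13 (adjusted p = 0.0242).

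The scaling decided part of these signs. The 10 muscle fiber genes, led by Acta1, summed to 199704 to 277046 CPM in WT and 122116 to 144446 in Mtm1 KO, so the most abundant transcripts took a smaller share of the reads in Mtm1 KO. With scaling by library size alone, the all-gene median in Mtm1 KO against WT moved on the log2 scale from 0.02 to 0.33, and Sqle (0.09), Insig1 (0.20) and Sc5d (0.07) turned positive while Hmgcs1 (0.00) and Dhcr7 (-0.06) stayed at or below 0. All of these stayed below the shifted median. In the treated comparison the median moved to 0.27 and Hmgcs1 turned to 0.17, also below the median. Ebp was positive under both, at 0.85 and 0.65 with library size alone, and stood above the median of all genes each time. With that scaling its adjusted p in edgeR was 0.0194 in Mtm1 KO against WT and 0.0132 in the treated comparison, past 0.05 and not 0.01, and that of Srebf2 was 0.0414 in Mtm1 KO against WT. The log2 fold change of Srebf2 there was 0.43, beside the shifted median of 0.33. At 0.01 that scaling called 1163 of 14740 genes in Mtm1 KO against WT and 1874 of 14563 in the treated comparison.

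Of the whole route, 2 of 21 genes were called in Mtm1 KO + TAM against WT + TAM, beside the 6.72% of all genes called there, and 0 in Mtm1 KO against WT, beside 3.6% of all genes, where DESeq2 called 0. At an unadjusted p under 0.05 in edgeR there were 10 of 21 in the treated and 4 of 21 in the untreated comparison, beside 4700 of 14563 and 4431 of 14740 genes. The called genes moved in opposite directions. Mvd, the mevalonate diphosphate decarboxylase, was at 6.20, 4.66, 5.23 and 5.43 CPM in WT + TAM and at 13.5, 10.1, 12.8 and 9.96 in Mtm1 KO + TAM. It rose 2.13-fold, with no overlap, by 1.09 ± 0.16 (SE) on the log2 scale (adjusted p = 0.00157). In Mtm1 KO against WT, at 9.05, 14.8 and 9.27 against 3.66, 4.67 and 7.92 CPM, its log2 fold change was 1.03 ± 0.32 (adjusted p = 0.0653), the largest of the 21 there, before Acat2 (0.74 ± 0.45) and Ebp. The library labelled WT replicate 1 had 13.9 CPM of Mvd, inside the Mtm1 KO range.

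Fdps was at 42.5, 33.6, 38.3 and 39.5 CPM in WT + TAM and at 28.3, 25.03, 27.1 and 27.8 in Mtm1 KO + TAM, again with no overlap. It fell to 0.694-fold, a log2 fold change of -0.53 ± 0.11 (SE; edgeR, adjusted p = 0.00753), and had -0.34 (-0.62 to -0.05; adjusted p = 0.113) in Mtm1 KO against WT. With library size scaling these were -0.25 (adjusted p = 0.120) and -0.02. The call was lost without any 1 of 7 of the 8 libraries, and 26.2% of its 50-base exon stretches are shared with other genes, mostly Gm43738. Idi1, the isomerase between them in the route, had -0.88 ± 0.27 (adjusted p = 0.0473), Hsd17b7, a reductase of the late route, had -0.55 ± 0.19 (adjusted p = 0.0680), and the log2 fold change was below 0 for 15 of the 21 genes with a median of -0.31, beside -0.01 over all genes. Srebf1 fell by 1.05 on the log2 scale in the same comparison (± 0.12 SE, 0.483-fold, adjusted p = 0.000412), with all 4 Mtm1 KO + TAM libraries below all 4 WT + TAM libraries. In Mtm1 KO against WT its level was 0.730-fold (0.534 to 0.997; edgeR, adjusted p = 0.163). On the log2 scale this was -0.45, which became -0.15 with library size scaling and -0.69 with all 16 libraries.

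**Figure D4:**
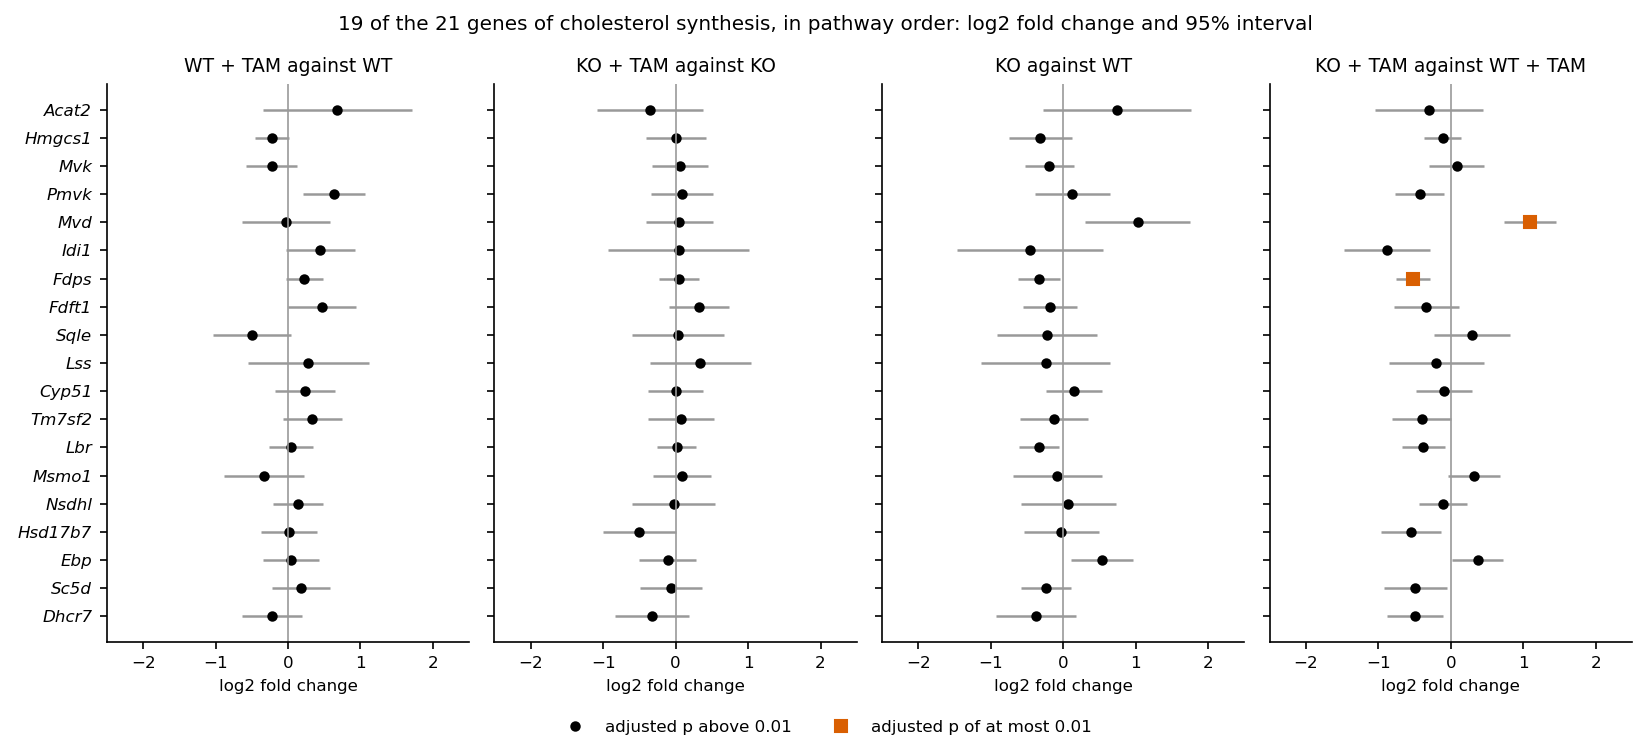
Log2 fold change with 95% interval for 19 of the 21 cholesterol synthesis genes in pathway order, from Acat2 at the top to Dhcr7 at the bottom, in 4 comparisons. Squares mark an adjusted p of at most 0.01 and appear for Mvd (1.09) and Fdps (-0.53) in Mtm1 KO + TAM against WT + TAM only, among these 4 comparisons.

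Of the 8 genes for Ebp relatives and proteins known to bind tamoxifen, 1 was called, in Mtm1 KO + TAM against WT + TAM, where 6.72% of all genes were. Esr1, the estrogen receptor alpha and the classical target of the drug, was at 21.7, 37.6, 24.7 and 26.0 CPM in WT + TAM and at 14.8, 12.3, 12.9 and 18.8 in Mtm1 KO + TAM, with no overlap. It fell by 0.92 on the log2 scale (± 0.19 SE, edgeR, adjusted p = 0.00704), a call that held in 11 of 21 alternative settings. In Mtm1 KO against WT its log2 fold change was -0.72 ± 0.17 (edgeR, adjusted p = 0.0291). That value was -0.41 with library size scaling (adjusted p = 0.139). The adjusted p was 0.102 with all 16 libraries and up to 0.0941 with 1 library left out. With tamoxifen Esr1 had 0.00 (-0.43 to 0.43) in WT and -0.19 (-0.58 to 0.19) in Mtm1 KO. Ephx1, the epoxide hydrolase reported at the antiestrogen binding site, had a log2 fold change of 1.08 (0.61 to 1.54; adjusted p = 0.0124) in Mtm1 KO against WT, past 0.05 and not 0.01, and 0.38 (-0.05 to 0.81) in the treated comparison. It stood at 14.8, 11.6 and 15.3 CPM in WT and at 28.6, 23.9, 17.3 and 16.8 in WT + TAM. All treated WT libraries were above the 3 untreated ones, with a log2 fold change of 0.63 (0.16 to 1.102; edgeR, unadjusted p = 0.0142, adjusted p = 0.319), while the library labelled WT replicate 1 was at 27.9 CPM. In Mtm1 KO the tamoxifen value of Ephx1 was -0.06 (-0.50 to 0.39), and averaged it was 0.29 (-0.04 to 0.62). Tmem97, a sterol-binding membrane protein, had log2 fold changes between -0.15 and 0.27, and its interval contained 0 in each of the 6 comparisons.

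The last question was how the genes varied among mice of 1 group. The SD of Insig1 around its group means was 0.63 on the log2 CPM scale over the 14 libraries, above 98.4% of 2761 genes of like counts, whose median was 0.19. Srebf2 (0.27, 81.1%) and Sc5d (0.29, 80.2%) were also in the upper part, and Sqle (0.35, 47.1%) and Ebp (0.23, 52.6%) near the middle. Deviations from the group means went together most for Insig1 and Sc5d (Pearson r = 0.84), Hmgcs1 and Insig1 (0.82) and Dhcr7 and Insig1 (0.79), and least for Dhcr7 and Srebf2 (-0.39). Over the 21 pairs the median r was 0.28, with 15 above 0. Ebp followed none of the others closely, at -0.33 to 0.28. These are descriptions over 14 libraries that share 1 scaling, with no test.

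The libraries with high Insig1 were also those with high lipid synthesis transcripts. The 14 fatty acid synthesis genes, led by Scd1, summed to 7544 and 6678 CPM in WT + TAM replicates 5 and 6 against 2030 and 2017 in replicates 7 and 8. They summed to 4613 in Mtm1 KO replicate 9 against 1910 and 914 in its group, and to 4055 in Mtm1 KO + TAM replicate 16 against 1799 to 2507. The Pearson correlation of this list's deviations with those of Insig1 was 0.82, with Dhcr7 0.80, with Hmgcs1 0.66, with Sc5d 0.64, with Ebp 0.05 and with Srebf2 -0.57. The fat cell list, 8 markers led by Fabp4 with none at 0, went the same way, at 3488 and 2477 CPM in WT + TAM replicates 5 and 6 against 967 and 969 in replicates 7 and 8, with r = 0.58 for Insig1. In WT + TAM against WT 12 of the 14 fatty acid synthesis genes had a log2 fold change above 0 with a median of 0.84, 8 with an unadjusted p under 0.05 (1549 of 14544 over all genes) and 0 called by edgeR, where 0.131% of all genes were. In Mtm1 KO + TAM against Mtm1 KO 3 of the 14 were above 0, with a median of -0.08, and the difference between genotypes had a median of -0.95 with 0 called, where 0% of all genes were. Other marker lists also differed between these libraries. WT + TAM replicate 6 had 661 CPM of the 8 fasting and atrophy genes, led by Pdk4, against 1501 to 1584 in the rest of its group, and 61.5 CPM of macrophage and leukocyte markers against 148 to 162. The 6 fibroblast markers, led by Col3a1, summed to 2657 to 4138 CPM in WT + TAM and to 4495 to 5300 in the 3 WT libraries, with no overlap, while the library labelled WT replicate 1 was at 3644. The 6 endothelial markers, led by Pecam1 with none at 0, summed to 343 to 489 CPM in WT, 298 to 353 in WT + TAM, 302 to 408 in Mtm1 KO and 238 to 350 in Mtm1 KO + TAM, with overlap in both genotypes. With tamoxifen 5 of them were below 0 in WT and all 6 in Mtm1 KO. Averaged, Cdh5, an endothelial cadherin, and Tie1, an endothelial receptor kinase, fell by 0.62 and 0.52 on the log2 scale, with adjusted p of 0.0260 and 0.0343 in edgeR that passed 0.05 and not 0.01. The study reports that its high dose lowered body weight in both genotypes, and relates this to earlier work on reduced food intake. The part of fat cells, of these other cells or of feeding in the values of Insig1 and of the lipid synthesis genes was not tested.

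**Figure D5:**
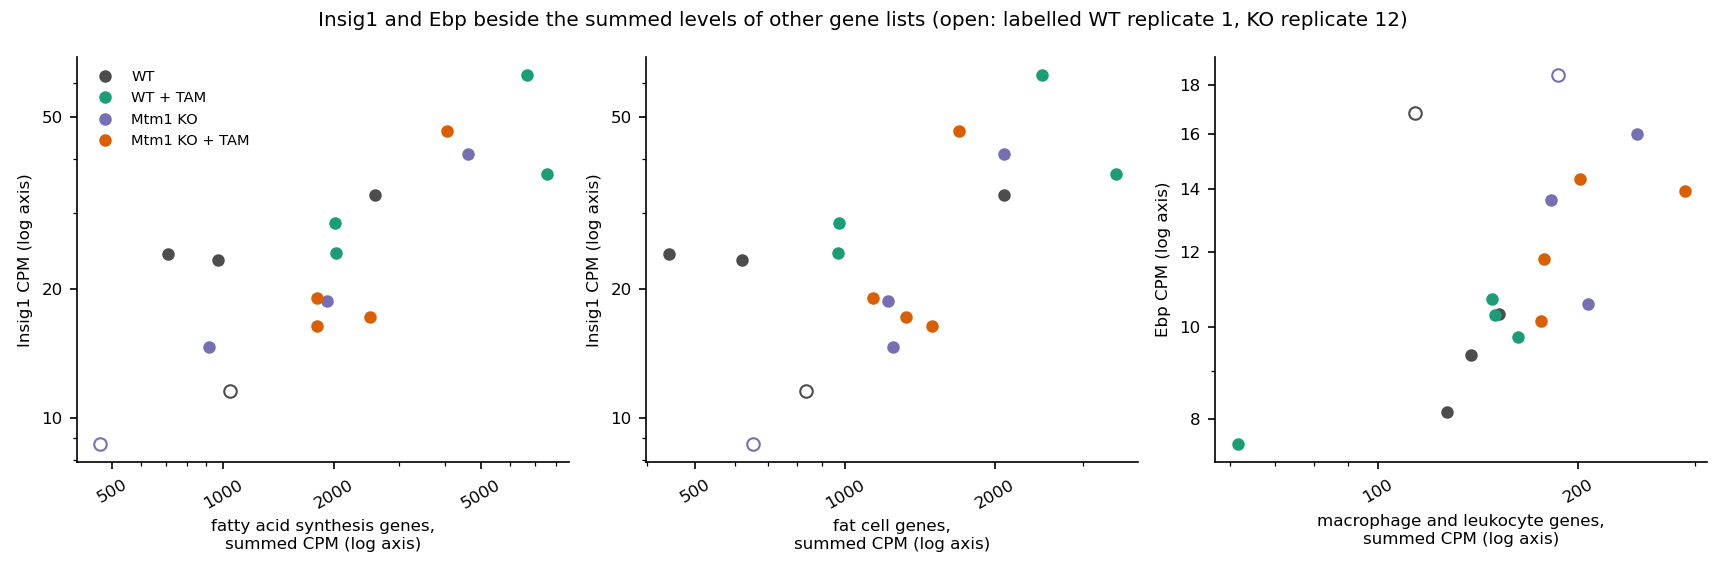
Insig1 CPM against the summed CPM of the fatty acid synthesis genes (left) and of the fat cell markers (middle), and Ebp CPM against the macrophage and leukocyte markers (right), on log axes, 1 point per library. The 5 libraries highest in fatty acid synthesis genes, 2 of them WT + TAM, are the 5 with the highest Insig1, from 32.9 to 62.6 CPM, and the Mtm1 KO libraries lie above the WT libraries of the main set in both Ebp and leukocyte markers.

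Genes outside the list whose deviations were most like the mean profile of the 7 were Rp2h (Pearson r = 0.92), Slc4a4 (0.91), Bag4 (0.91), Fam210a (0.91) and Ssfa2 (0.90), out of 10571 genes with a mean of at least 100 counts in the 14 libraries. The choice depended on the measure, since 2 of these 5 were also among the top 5 by Spearman's rho, which was 0.98 for Rp2h and 0.74 for Slc4a4. Of the genes named above, Srebf1 had 0.68 and Mvd -0.21.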

How the data were processed

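RNA of quadriceps was sequenced, aligned with STAR in a two-step procedure to GRCm38 and counted per gene with HTSeq, according to the study's methods. The submitters' processing notes name STAR 2.5.0c, Cufflinks 2.2.1 and bcl2fastq 2.17. Annotation, counting mode and strand setting: not given in the sources used here. The values used are the authors' deposited raw counts and their deposited RPKM values. The 7 genes and all gene lists were chosen with earlier results of these data known. The 14 libraries of the study's comparison were the main set, and no reason for leaving out the other 2 was found. Genes were filtered with filterByExpr (minimum count 10, minimum total 15) and tested with edgeR 4.0.16 (TMM factors, quasi-likelihood F-test, Benjamini-Hochberg adjustment over all genes tested, R 4.3.3). The contrasts within a genotype or treatment were fitted on their own libraries, and the averaged and interaction contrasts on all 14. The settings tried beside this were edgeR's exact test, DESeq2 1.42.0, limma 3.58.1 on log2(RPKM + 0.1) and log2(RPKM + 1), other scalings and filters, 16 libraries and each library left out. Libraries of 25116179 to 29847222 counts gave 44 to 138 counts of the least abundant gene, Sqle, per library. The p-values weigh a difference against the spread between libraries, each of which was counted as 1 mouse. By rule the text names the 7 genes, those called in a list, the 3 of the synthesis list with the largest absolute log2 fold change in each comparison, the 5 genes most like the members' mean profile, and Mtm1. Other genes (Ebpl, Ephx1, Tmem97, Cdh5, Tie1) were chosen after their values were seen. Some genes of the lists, counted in the list totals, are not reported here. The code was tested on simulated counts.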

Additional observations from a re-analysis of the deposited data

Results flagged for a closer look

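Of 22 groups of 4 libraries tested, 2 held a library far from the others of its group, and chance alone marks about 1 group in 20. Insig1 stood at 46.4 CPM in Mtm1 KO + TAM replicate 16, while the next library of the group was at 19.0, a gap of 0.910 of the group's range. Sc5d stood at 28.2 CPM in WT + TAM replicate 6, while the next was at 18.3, a gap of 0.861 of the range.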

How the results depend on the processing

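None of the 7 genes was called in any of the 6 comparisons under any alternative at an adjusted p of at most 0.01. The count of 2 cholesterol synthesis genes called in Mtm1 KO + TAM against WT + TAM was 1 with library size scaling, upper quartile scaling, limma on RPKM with either pseudocount, and with WT + TAM replicates 7 and 8 summed (chosen after seeing the data), and ran from 1 to 2 with 1 library left out. The gene lost was Fdps, while Mvd was called in 21 of 21 alternatives. Counts over all genes moved more. DESeq2 called 214 genes in WT + TAM against WT beside 19, 72 in Mtm1 KO + TAM against Mtm1 KO beside 0, 343 beside 92 for the averaged effect, 1678 beside 531 in Mtm1 KO against WT and 1995 beside 979 in the treated comparison. Mtm1 KO against WT called 211 with 16 libraries and 1163 with library size scaling, and the treated comparison 1874 with library size scaling and 539 with replicates 7 and 8 summed, which left 4 in WT + TAM against WT. Over all settings at the limit of 0.01 the counts ran from 2 to 214, 0 to 72, 51 to 343, 182 to 1678 and 424 to 1995 for these 5 comparisons, in that order, and from 0 to 11 for the difference between genotypes. No paired analysis was possible because the groups share no replicate numbers. Low counts limit Sqle most.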
